A study of Caenorhabditis elegans with 18 samples.

Results

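The genes described here encode proteins that build meiotic chromosome axes, hold paired chromosomes together, or mark the chromosome ends that pair. There were 10 genes, picked by name: him-3, htp-1, htp-2, htp-3, syp-1, syp-2, syp-3, syp-4, him-8 and zim-2. Their levels were read from every entry whose reference label was exactly 1 of these names, which gave 356 of 988152 entries in 18 libraries. Of the 10 genes, 9 had such entries, and zim-2 had none. The lists held 20574 labels that name 1 gene.

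In meiotic prophase each chromosome of Caenorhabditis elegans forms a protein axis on which the HORMA domain proteins HTP-3, HIM-3, HTP-1 and HTP-2 assemble. The SYP proteins then join the axes of homologous chromosomes into the synaptonemal complex, the zipper within which crossovers are made. The zinc finger proteins HIM-8 and ZIM-2 bind pairing centres, of the X chromosome and of chromosome V respectively, and start the search for the partner. Meiosis takes place in the adult gonad, and transcripts of germline genes can be loaded into the oocyte and reach the early embryo. In the embryo only the primordial germ cells are set aside to make a germline.

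RNA came from eggs that bleaching freed from synchronized adults grown at 20 °C. There were 6 strains with 3 libraries each: wild type (N2), the single mutants uaf-1(n4588), rbm-5(n5119) and rbm-5(n5132), and the double mutants uaf-1(n4588); rbm-5(n5119) and uaf-1(n4588); rbm-5(n5132). The gene uaf-1 encodes the large subunit of U2AF, which recognises 3′ splice sites, and rbm-5 encodes an RNA-binding protein. Nothing in the labels ties the replicates of a strain to separate cultures, so the p-values speak only for the spread among these libraries, which may be technical.

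Each library listed 53772–55828 entries in FPKM, a fragment count divided by transcript length and by the mapped fragments of the library, and 26.7–33.7% of them were at 0. Read depth is unknown. The replicate 1 libraries of all strains stood apart: their 10 highest start entries held 21.3–43.7% of the summed start FPKM, against 7.57–11.8% in replicates 2 and 3. No pair of libraries held identical values. The uaf-1 level was 67.1, 105 and 124 FPKM in uaf-1(n4588) and 124–236 FPKM in the other 15 libraries.

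The genes lie on chromosomes I, IV and V of the WBcel235 assembly, and all are annotated as protein coding. On chromosome I are htp-3 (4827072 to 4829791, plus strand), syp-4 (6847511 to 6849923, plus strand) and syp-3 (8663045 to 8664445, minus strand). On chromosome IV are htp-1 (5390189 to 5391557, minus strand), htp-2 (6419522 to 6420898, plus strand), him-3 (6977508 to 6978765, plus strand), zim-2 (10555247 to 10558225, plus strand) and him-8 (10561905 to 10563974, plus strand). On chromosome V are syp-2 (5536487 to 5537717, plus strand) and syp-1 (16404274 to 16407701, plus strand).

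Whether a gene had a level at all depended on how the authors' assembly of each library drew its locus. Of 180 combinations of gene and library, 141 had the gene alone above 0 and 3 had it alone at 0. In 16 the gene shared a label with other genes, in 11 a locus labelled only with other genes covered at least 50% of it, in 7 an unnamed locus did, and in 2 no locus did. A combination with both an unnamed locus and one labelled with other genes was counted with the former. The genes him-3, htp-1 and syp-2 were listed alone in all 18 libraries. Missing combinations were left out of every mean and test.

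**Figure D1:**
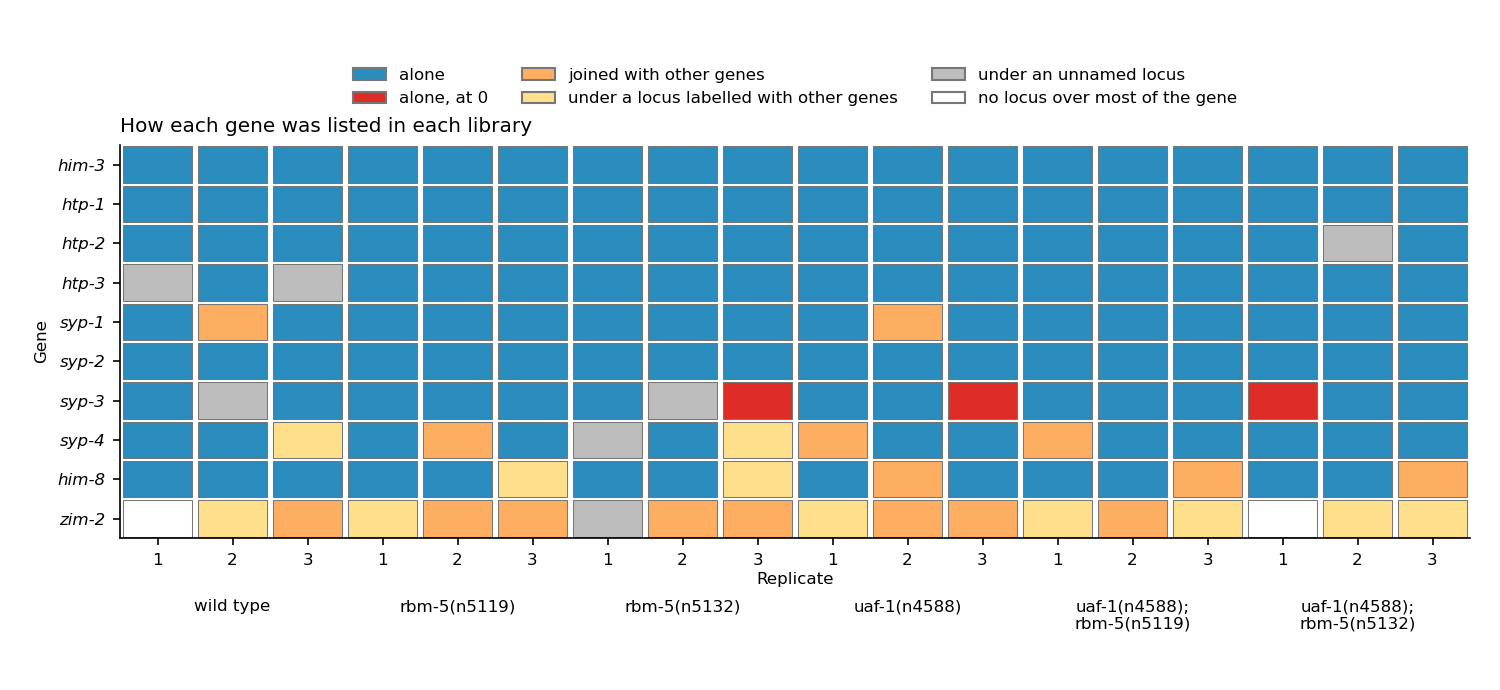
How the 10 genes (vertical axis) were listed in the 18 libraries (horizontal axis, 3 replicates for each of 6 strains); the colour of a cell gives the kind of listing. Listings alone and above 0 fill 141 of 180 cells, zim-2 has no such cell, and the 3 red cells are syp-3 listed at 0.

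As a level per length, the 9 genes were in the upper part of the transcriptome of these eggs. Among 16267 genes listed alone in at least 12 libraries, with a median of 1.02 FPKM, the median of syp-2 over its libraries (35.9 FPKM) was higher than that of 81.9% of the genes. The lowest of the 9, syp-4, with a median of 9.69 FPKM, was higher than 67.4%. Between them were htp-2 (34.3 FPKM), htp-1 (29.8 FPKM), him-3 (26.9 FPKM), syp-1 (26.0 FPKM), him-8 (20.6 FPKM), htp-3 (20.5 FPKM) and syp-3 (16.6 FPKM). The ranges of neighbours in this order overlapped, and differences between genes were not tested. At the ends of the order, the range of syp-2 was 17.2–63.8 FPKM and that of syp-4 was 5.02–18.5 FPKM.

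HIM-3 is an axis protein needed for pairing and synapsis. Its gene was listed at 8.37, 24.3 and 12.4 FPKM in wild type, 13.2, 19.9 and 37.7 FPKM in rbm-5(n5119) and 19.1, 52.2 and 33.9 FPKM in rbm-5(n5132). In uaf-1(n4588) it was 53.0, 23.1 and 37.0 FPKM, in uaf-1(n4588); rbm-5(n5119) 62.1, 29.5 and 17.9 FPKM, and in uaf-1(n4588); rbm-5(n5132) 12.7, 31.5 and 36.2 FPKM. The strain means ran from 15.02 ± 8.27 FPKM (SD, n = 3) in wild type to 37.7 ± 14.9 FPKM (SD, n = 3) in uaf-1(n4588). Each mutant overlapped with wild type: the highest wild-type library was above the lowest library of every mutant. A locus whose label names prkl-1 lay on the opposite strand over 369–378 bases of him-3 in some libraries. These were uaf-1(n4588) replicates 1 and 3, uaf-1(n4588); rbm-5(n5119) replicate 1 and uaf-1(n4588); rbm-5(n5132) replicates 2 and 3. They listed him-3 at 31.5–62.1 FPKM, the other libraries of those strains at 12.7–29.5 FPKM. Without such a locus, rbm-5(n5132) replicate 2 was at 52.2 FPKM. The part of this locus in the him-3 level was not tested.

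HTP-1 and HTP-2 are paralogs that act at the axis and in the stepwise release of cohesion. The htp-1 level was 11.4, 29.5 and 13.4 FPKM in wild type, 15.6, 16.0 and 39.8 FPKM in rbm-5(n5119) and 24.0, 57 and 38.5 FPKM in rbm-5(n5132). It was 48.3, 28.0 and 36.6 FPKM in uaf-1(n4588), 44.1, 30.1 and 19.6 FPKM in uaf-1(n4588); rbm-5(n5119) and 11.1, 31.4 and 35.9 FPKM in uaf-1(n4588); rbm-5(n5132). The wild-type mean, 18.1 ± 9.93 FPKM (SD, n = 3), was the lowest of the 6, and that of rbm-5(n5132), 39.8 ± 16.6 FPKM (SD, n = 3), the highest.

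The htp-2 level was 19.5, 35.95 and 16.7 FPKM in wild type, 20.6, 23.0 and 40.4 FPKM in rbm-5(n5119) and 34.8, 54.8 and 44.6 FPKM in rbm-5(n5132). It was 43.0, 28.6 and 34.3 FPKM in uaf-1(n4588), 35.5, 33.8 and 23.2 FPKM in uaf-1(n4588); rbm-5(n5119), and 33.7 and 41.7 FPKM in replicates 1 and 3 of uaf-1(n4588); rbm-5(n5132). Here too wild type had the lowest mean and rbm-5(n5132) the highest, and the highest wild-type library was above the lowest of rbm-5(n5132). In the library without a value an unnamed locus began at the first exon of htp-2, with a start level of 35.98 FPKM. Unnamed loci on the opposite strand spanned htp-2 in that library, in uaf-1(n4588) replicate 2 and in uaf-1(n4588); rbm-5(n5119) replicate 3. Their part in the htp-2 level was not tested.

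The genes htp-1 and htp-2 have internal exons of the same lengths, 148 and 734 bases, and the same coding length of 1056 bases without the stop codon. Reads shared by paralogs can be split between them by the authors' processing, so the level of each may be uncertain. The sequences of the 2 genes were not compared here. The ratio of htp-1 to htp-2 ran from 0.330 in uaf-1(n4588); rbm-5(n5132) replicate 1 to 1.24 in uaf-1(n4588); rbm-5(n5119) replicate 1. It was 0.582, 0.821 and 0.803 in wild type and 1.13, 0.978 and 1.07 in uaf-1(n4588). The lowest ratio falls in a library where the summed end entries of htp-1 gave 15.2 FPKM in place of the 11.1 FPKM of its start entries.

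HTP-3 recruits the other HORMA proteins to the axis. It had 1 wild-type value, 25.1 FPKM in replicate 2, so no comparison with wild type was tested. In wild-type replicate 1 an unnamed locus began at its first exon, with a start level of 10.9 FPKM, and an unnamed locus also covered the gene in replicate 3. The htp-3 level was 16.2, 18.98 and 33.1 FPKM in rbm-5(n5119), 22.5, 36.4 and 30.1 FPKM in rbm-5(n5132), and 17.04, 16.8 and 21.6 FPKM in uaf-1(n4588). It was 19.4, 17.8 and 9.23 FPKM in uaf-1(n4588); rbm-5(n5119) and 13.6, 25.1 and 27.5 FPKM in uaf-1(n4588); rbm-5(n5132). The strain means with 3 libraries ran from 15.5 to 29.7 FPKM.

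SYP-1 is a central region protein of the synaptonemal complex. Its gene was at 22.5 and 17.6 FPKM in wild-type replicates 1 and 3, at 26.5, 22.8 and 31.6 FPKM in rbm-5(n5119), and at 27.8, 88.6 and 40.1 FPKM in rbm-5(n5132). It was 23.5 and 31.0 FPKM in replicates 1 and 3 of uaf-1(n4588), 24.8, 25.5 and 12.5 FPKM in uaf-1(n4588); rbm-5(n5119) and 17.8, 33.8 and 34.3 FPKM in uaf-1(n4588); rbm-5(n5132). The value of 88.6 FPKM was the sum of 2 listed starts, 70.3 and 18.4 FPKM, where the end entries of the same library summed to 44.9 FPKM. In the libraries without a value, wild-type replicate 2 and uaf-1(n4588) replicate 2, the gene shared a locus with F26D2.3 and 21ur-12126, whose start levels were 30.7 and 24.2 FPKM.

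SYP-2 is another central region protein. Its gene was at 19.7, 30.6 and 17.2 FPKM in wild type, 19.5, 20.0 and 42.0 FPKM in rbm-5(n5119) and 34.8, 60.8 and 48.2 FPKM in rbm-5(n5132). It was 63.8, 37.0 and 47.5 FPKM in uaf-1(n4588), 56.0, 23.9 and 24.4 FPKM in uaf-1(n4588); rbm-5(n5119) and 24.4, 39.6 and 38.5 FPKM in uaf-1(n4588); rbm-5(n5132). Every library of rbm-5(n5132) and of uaf-1(n4588) was above every wild-type library. The rbm-5(n5119) libraries overlapped with wild type, as did those of both double mutants.

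SYP-3 is also needed for synapsis. Its gene was listed at 21.97 and 13.7 FPKM in wild-type replicates 1 and 3, at 10.98, 24.4 and 25.5 FPKM in rbm-5(n5119), and at 20.2 and 0 FPKM in replicates 1 and 3 of rbm-5(n5132). The uaf-1(n4588) libraries listed it at 31.6, 3.07 and 0 FPKM, uaf-1(n4588); rbm-5(n5119) libraries at 17.5, 15.6 and 15.8 FPKM, and those of uaf-1(n4588); rbm-5(n5132) at 0, 18.3 and 21.7 FPKM. An exact 0 can be a failed estimate, so the 3 libraries at 0 are given as listed. In all 3 an unnamed locus on the opposite strand reached over 432–675 bases of syp-3, with start levels of 32.8 FPKM in rbm-5(n5132) replicate 3, 41.1 FPKM in uaf-1(n4588) replicate 3 and 25.1 FPKM in the double mutant. No such locus lay over syp-3 in the 13 libraries that listed it above 0. The part of these loci in the zeros was not tested. In uaf-1(n4588) replicate 2 the start entries gave 3.07 FPKM and the end entries 17.4 FPKM. A syp-3 intron was listed there with a retained form at 3.07 FPKM, equal to the start value, and a spliced form at 14.3 FPKM.

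SYP-4 completes the set of central region proteins measured here, and its gene had the lowest median over libraries of the 9. Its gene was at 5.02 and 9.05 FPKM in wild-type replicates 1 and 2, at 8.88 and 12.6 FPKM in rbm-5(n5119) replicates 1 and 3, and at 18.5 FPKM in rbm-5(n5132) replicate 2. It was 10.1 and 14.6 FPKM in replicates 2 and 3 of uaf-1(n4588), 9.32 and 6.66 FPKM in replicates 2 and 3 of uaf-1(n4588); rbm-5(n5119) and 6.15, 10.3 and 12.3 FPKM in uaf-1(n4588); rbm-5(n5132). In 3 of the 6 libraries without a value the gene shared a locus with H27M09.7 or with rpb-5 and sacy-1. Both uaf-1(n4588) libraries were above both wild-type libraries.

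HIM-8 marks the pairing centre of the X chromosome. Its gene was at 9.44, 41.5 and 20.1 FPKM in wild type, at 11.6 and 25.5 FPKM in replicates 1 and 2 of rbm-5(n5119), and at 26.6 and 44.8 FPKM in the same replicates of rbm-5(n5132). It was 17.2 and 24.5 FPKM in replicates 1 and 3 of uaf-1(n4588), 19.6 and 24.9 FPKM in replicates 1 and 2 of uaf-1(n4588); rbm-5(n5119) and 14.8 and 20.6 FPKM in the same replicates of uaf-1(n4588); rbm-5(n5132). The 3 wild-type libraries spanned nearly the whole range of the other strains.

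ZIM-2 is encoded beside its relatives zim-1 and zim-3 and beside him-8 on chromosome IV. It had no level of its own in any library, and in 8 libraries it shared a label with its neighbours. Of those neighbours, zim-1 and zim-3 were each alone in 3 libraries and joined with other genes in 15, while him-8 was alone in 13. In 8 further libraries a locus labelled with other genes covered at least 50% of zim-2. In 1 of these, rbm-5(n5132) replicate 1, an unnamed locus on the same strand also ran from 10555649 to 10558220 of chromosome IV, within zim-2, with a start level of 14.2 FPKM.

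**Figure D2:**
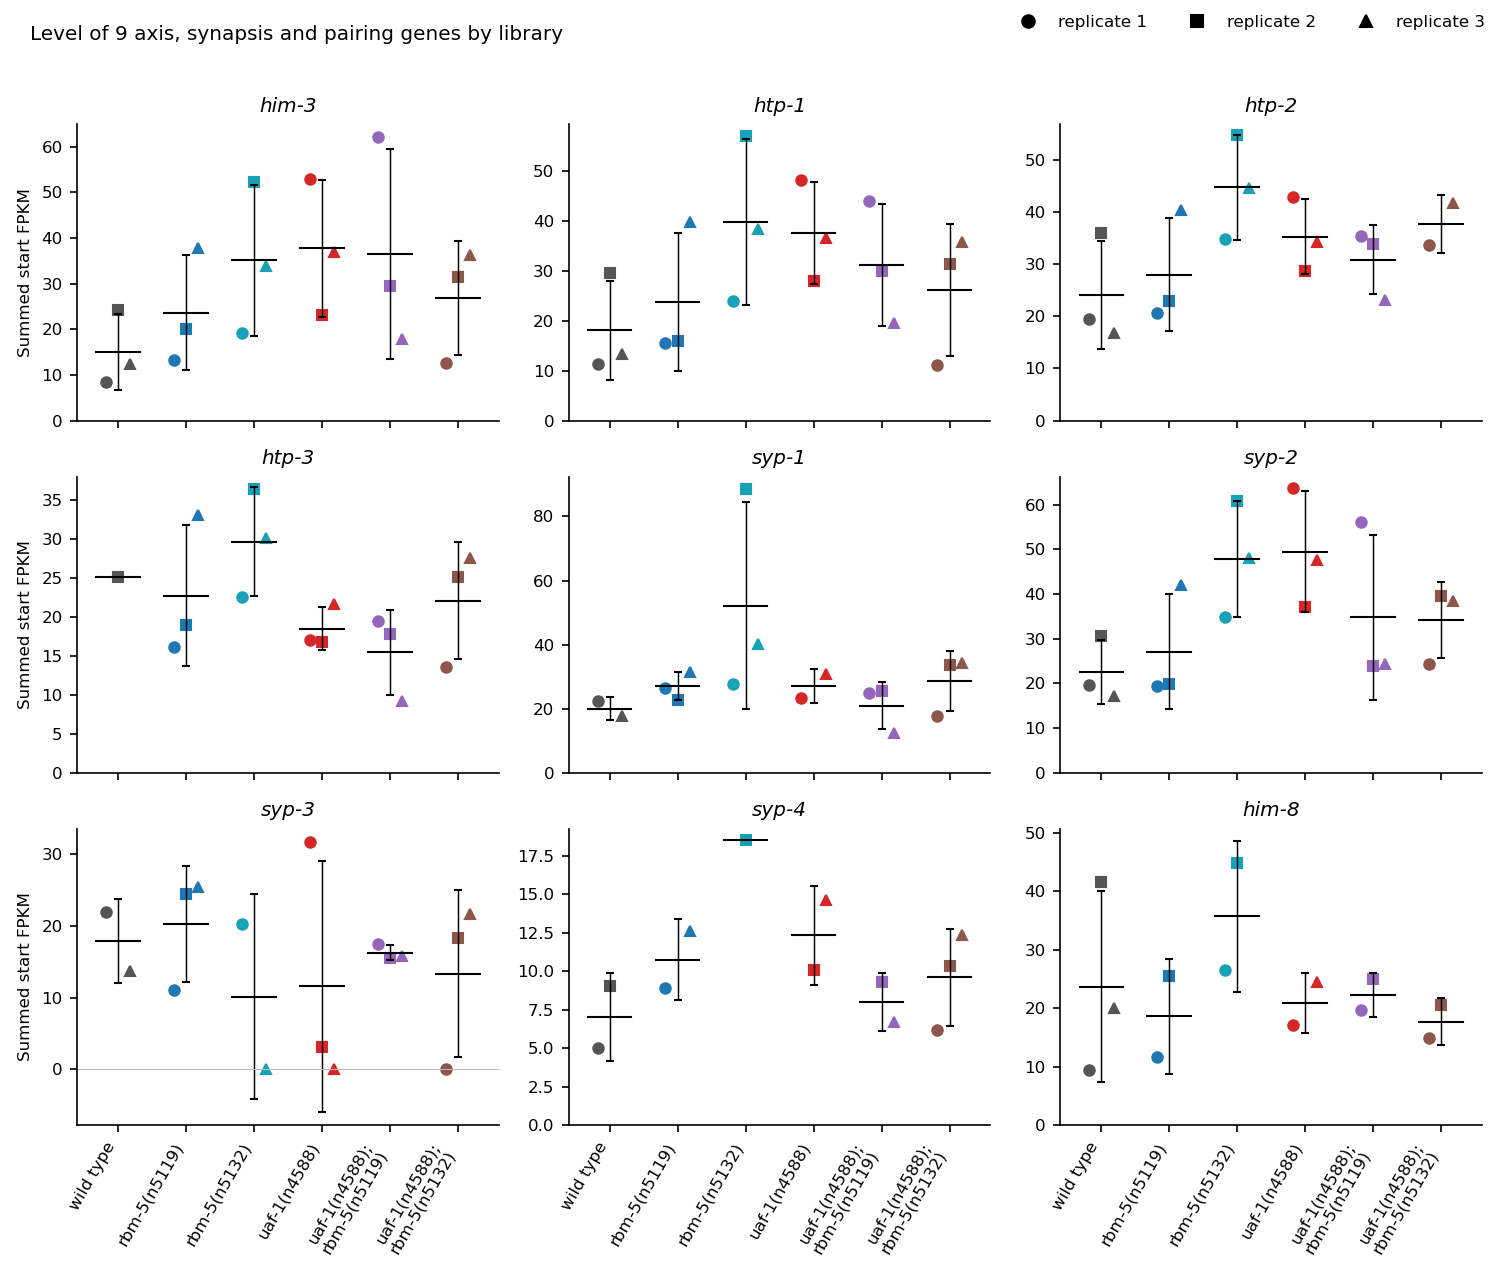
Summed start FPKM (vertical axes, linear, each panel with its own range) of 9 genes by strain; each point is 1 library, its shape the replicate, the bar the mean and the whisker the SD over the libraries that listed the gene alone. Wild type has the lowest mean of the 6 strains for 6 of the 9 genes and rbm-5(n5132) the highest for 6 of the 9, and the points of most strains overlap.

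Wild type had the lowest strain mean for him-3, htp-1, htp-2, syp-1, syp-2 and syp-4, and rbm-5(n5132) had the highest for htp-1, htp-2, htp-3, syp-1, syp-4 and him-8. For each of the latter genes, rbm-5(n5132) replicate 2 was the highest of all libraries that listed the gene alone. In rbm-5(n5132) the syp-4 value rested on 1 library and the him-8 mean on 2. This order is a description of means, and none of its differences passed the tests that follow. Each test compared log2(FPKM + 1) in the limma model fitted over all genes, and a gene was called at a Benjamini-Hochberg adjusted p under 0.05. Fold changes on that scale understate the change of low genes.

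Across the 6 strains none of the 7 genes that could be tested (him-3, him-8, htp-1, htp-2, syp-1, syp-2 and syp-3) was called. Their adjusted p-values from limma were 0.839–0.869, with the smallest p for syp-2 (unadjusted p = 0.0738), and 0 of the 7 had an unadjusted p under 0.05. Over all genes 21 of 7160 were called, or 0.293%. The number of calls was low throughout, so a count of 0 among 7 genes is near the background.

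The mutation uaf-1(n4588) alone was compared with wild type in 8 of the genes. None was called, against 0.177% of all 8452 genes tested. The smallest p was that of syp-2, with 49.5 ± 13.5 FPKM (SD, n = 3) in uaf-1(n4588) and 22.5 ± 7.14 FPKM (SD, n = 3) in wild type. Its log2 change was 1.11 (SE 0.39, 95% interval 0.27 to 1.95; limma adjusted p = 0.643). The change of him-3 was 1.32 (SE 0.57, 95% interval 0.10 to 2.54; limma adjusted p = 0.800), and these were the 2 genes with an unadjusted p under 0.05, where 486 of all genes had one. The opposite-strand prkl-1 locus lay over him-3 in replicates 1 and 3 of uaf-1(n4588) and in no wild-type library. The log2 change was above 0 for 7 of the 8, with a median of 0.67 beside -0.05 over all genes. For syp-3, with its listed 0 and its start value of 3.07 FPKM in uaf-1(n4588), it was below 0. For him-8 it was 0.03, while the mean level was lower in uaf-1(n4588), at 20.8 FPKM against 23.7 FPKM. After scaling to a common median 6 of the 8 were higher and none had an unadjusted p under 0.05. Libraries did not overlap for 3 of the 8 (syp-1, syp-2 and syp-4), against 17.3% of all genes. For syp-1 and syp-4 this was 2 libraries against 2. In wild-type replicate 2, without a syp-1 value, the locus it shared with other genes was at 30.7 FPKM. That is above uaf-1(n4588) replicate 1, at 23.5 FPKM for syp-1.

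The comparison of rbm-5(n5132) with wild type gave the largest median among the comparisons with wild type. None of the 7 genes tested was called, against 0.0114% of 8779 genes, which is 1 gene. Of the 7, 4 had an unadjusted p under 0.05 (htp-1, htp-2, syp-1 and syp-2), where 415 of all genes did. The smallest p was that of htp-2, at 44.7 ± 10.0 FPKM (SD, n = 3) against 24.1 ± 10.4 FPKM (SD, n = 3) in wild type. Its log2 change was 0.92 (SE 0.33, 95% interval 0.21 to 1.63; limma adjusted p = 1). The change of syp-1 was 1.18, that of htp-1 1.13 and that of syp-2 1.07. The median over the 7 was 1.07, beside -0.00 over all genes, and syp-3 alone had a lower mean. After scaling to a common median the median over the 7 was 1.04 and none of the 7 had an unadjusted p under 0.05. Without rbm-5(n5132) replicate 2 the median was 0.80 over 6 genes, and 0 of the 6 had such a p. Leaving out wild-type replicate 3 gave 0.90 over 5 genes, and 0 of the 5. Leaving out rbm-5(n5132) replicate 1 gave 1.44 over 5 genes, and 5 of the 5. Libraries did not overlap for syp-1 and syp-2, 2 of the 7, against 12.9% of all genes. For syp-1 this was 3 libraries against 2. The shared syp-1 locus of wild-type replicate 2, at 30.7 FPKM, was above rbm-5(n5132) replicate 1, at 27.8 FPKM.

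The other allele, rbm-5(n5119), shares the wild-type libraries with both comparisons above. None of the 8 genes tested was called, against 0.0228% of 8758 genes, and none had an unadjusted p under 0.05, where 480 of all genes did. Closest to a call by its p was syp-4, at 10.7 ± 2.63 FPKM (SD, n = 2) against 7.04 ± 2.85 FPKM (SD, n = 2), with a log2 change of 0.57 (SE 0.45, 95% interval -0.46 to 1.61; limma adjusted p = 0.675). The median change over the 8 genes was 0.29, beside -0.22 over all genes. That of all genes became 0.14 after scaling to a common median, and that of the 8 genes 0.75. Without rbm-5(n5119) replicate 3 the median of the 7 genes left was -0.07 and 2 of the 7 were higher, where 7 of the 8 had been. Libraries did not overlap for syp-1, 1 of the 8 genes, against 14.3% of all genes. This too was 3 libraries against 2. The shared syp-1 locus of wild-type replicate 2, at 30.7 FPKM, was above rbm-5(n5119) replicate 2, at 22.8 FPKM.

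The rbm-5 alleles were also set against each other. None of 8 genes was called, against 0.0113% of 8841 genes. The gene with the smallest p was syp-2, at 27.1 ± 12.9 FPKM (SD, n = 3) in rbm-5(n5119) and 47.9 ± 13.0 FPKM (SD, n = 3) in rbm-5(n5132), a log2 difference of -0.85 (SE 0.39, 95% interval -1.69 to -0.01; limma adjusted p = 0.846). It was the 1 gene of the 8 with an unadjusted p under 0.05, where 430 of all genes had one. In rbm-5(n5119) 7 of the 8 had the lower mean, with a median of -0.73 beside -0.26 over all genes. After scaling, those medians were -0.25 and 0.14. Libraries did not overlap for him-8 (2 libraries against 2), 1 of the 8, against 13.4% of all genes.

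Adding an rbm-5 mutation to uaf-1(n4588) was tested in 9 genes for each allele. With n5119 none was called, against 0.0239% of 8358 genes. The smallest p was that of syp-2, at 34.8 ± 18.4 FPKM (SD, n = 3) in the double mutant, with a log2 change of -0.58 (SE 0.39, 95% interval -1.42 to 0.26; limma adjusted p = 0.840). The double mutant had the lower mean for 7 of the 9, but after scaling 6 of the 9 were higher in it. Libraries did not overlap for syp-4 (2 libraries against 2), 1 of the 9, against 16.7% of all genes. With n5132 none was called, against 0.0858% of 8159 genes, and syp-2 again had the smallest p, at 34.2 ± 8.47 FPKM (SD, n = 3) with a log2 change of -0.52 (SE 0.39, 95% interval -1.36 to 0.32; limma adjusted p = 0.819). Libraries overlapped for all 9, while 19.5% of all genes did not overlap. None of the 9 had an unadjusted p under 0.05 with either allele, where 394 and 614 of all genes had one.

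Adding uaf-1(n4588) to an rbm-5 mutant gave the following values. In rbm-5(n5119) none of 9 genes was called, against 0.117% of 8512 genes. There htp-3 had the smallest p, at 15.5 ± 5.47 FPKM (SD, n = 3) in the double mutant and 22.7 ± 9.05 FPKM (SD, n = 3) in rbm-5(n5119), with a log2 change of -0.52 (SE 0.37, 95% interval -1.32 to 0.27; limma adjusted p = 1). Libraries overlapped for all 9, while 8.36% of all genes did not overlap. In rbm-5(n5132) none of 8 genes was called, against 0.0239% of 8380 genes. Here it was syp-1 that had the smallest p, at 28.6 ± 9.36 FPKM (SD, n = 3) against 52.2 ± 32.2 FPKM (SD, n = 3), a log2 change of -0.73 (SE 0.42, 95% interval -1.64 to 0.17; limma adjusted p = 1). The double mutant had the lower mean for 7 of the 8, also after scaling. Libraries did not overlap for him-8 (2 libraries against 2), 1 of the 8, against 15.9% of all genes. No gene of either set had an unadjusted p under 0.05, where 340 and 417 of all genes had one.

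**Figure D3:**
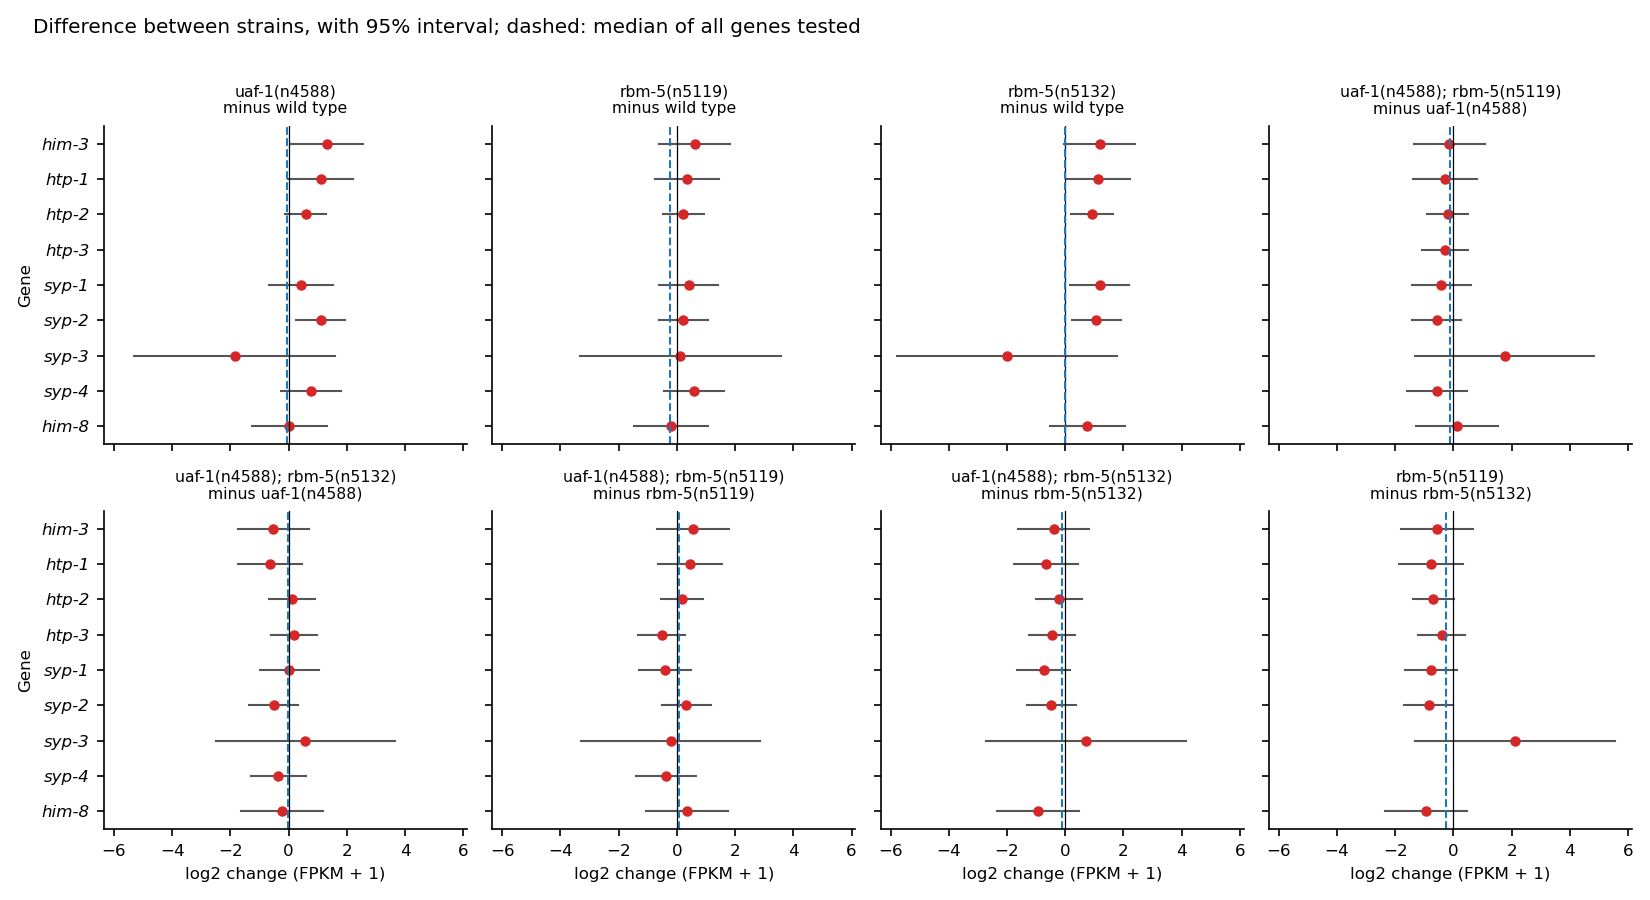
Log2 difference on the FPKM + 1 scale (horizontal axes) of each gene (vertical axes) in 8 comparisons of strains; points are limma estimates, lines their 95% intervals, and the dashed line the median of all genes tested. No gene was called in any panel, the intervals of syp-3 are the widest, and a gene without a point was not tested.

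Whether the effect of uaf-1(n4588) differed with the rbm-5 genotype was tested as an interaction. With n5132 none of 7 genes was called, against 0.0793% of 7564 genes. The smallest p was that of syp-2, with a difference of effects of -1.58 on the log2 scale (SE 0.56, 95% interval -2.77 to -0.39; limma adjusted p = 0.770). It and htp-1 (-1.76; limma adjusted p = 0.978) were the 2 of the 7 with an unadjusted p under 0.05, where 357 of all genes had one. The difference of effects was below 0 for 6 of the 7, with a median of -1.15 beside -0.02 over all genes. After scaling the median was -0.99 and none of the 7 had an unadjusted p under 0.05, and without rbm-5(n5132) replicate 1 it was -1.79 over 5 genes. Markers of oocytes and early embryos had a median of -1.44 in the same test (11 of 12 below 0) and germ plasm markers one of -1.85 (6 of 6 below 0). Their part in the difference was not tested. This value uses the libraries of both single mutants and of wild type, so it is not independent of the comparisons above. With n5119 no gene was called among 8 of the genes or among all 7695, so the background was 0.0%. The difference was below 0 for 6 of the 8, with a median of -0.71 beside 0.12 over all genes. At an unadjusted p under 0.05 there were 0 of the 8 and 145 of all genes. Of the 8, syp-4 had the smallest p (-1.14, SE 0.64, 95% interval -2.60 to 0.32; limma adjusted p = 1).

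Averaged over backgrounds, uaf-1(n4588) gave no call among 7 genes, against 0.656% of 7160 genes. The smallest p was that of him-3 (log2 change 0.49, SE 0.33, 95% interval -0.21 to 1.20; limma adjusted p = 0.882), and 4 of the 7 were higher. Averaged over alleles and backgrounds, the rbm-5 mutations gave no call among 7 genes, against 0.0279% of 7160 genes. Of these, htp-2 had the smallest p (0.26, SE 0.21, 95% interval -0.18 to 0.71; limma adjusted p = 0.578). All 7 were higher in the mutants, with a median of 0.14 beside -0.13 over all genes. This median rested on single libraries and on the scaling: it was 0.01 over 5 genes, 4 of them higher, when wild-type replicate 1 was left out, 0.34 when it was replicate 2, and 0.35 after scaling. With end entries 6 of the 7 were higher. Neither average had a gene of the 7 with an unadjusted p under 0.05, where 507 and 666 of all genes had one. Over the 12 comparisons, 95 tests of these genes were made and 9 had an unadjusted p under 0.05. The comparisons share libraries and several of the genes move together, so these tests are not independent. The counts over all genes are given with each comparison above.

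The series concerns splicing, and introns that stayed in the transcript were the 1 kind of splicing event listed for these genes. There were 11 such introns in 7 genes, among 50 annotated introns of the 10 genes. All 11 matched an annotated intron, were 43–64 bases long, and had lengths that are not a multiple of 3. Of these, 7 were listed in 1 library, 3 in 2 libraries, and 1 in all 18.

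The intron listed in every library is that of him-3 on chromosome IV from 6977984 to 6978029, 46 bases long. A second annotated transcript of him-3, a noncoding one, holds it. The retained form was listed at 0 in 16 libraries. It was at 1.95 of 12.4 FPKM in wild-type replicate 3, which is 15.7%, and at 2.88 of 17.9 FPKM in uaf-1(n4588); rbm-5(n5119) replicate 3, which is 16.1%. Both are libraries with a low him-3 level, but the lowest, wild-type replicate 1 at 8.37 FPKM, listed the retained form at 0. The ratio of the forms was not called among strains (limma adjusted p = 0.872), where 1.53% of 1901 events were, nor in any of the 12 comparisons. Its p was smallest for uaf-1(n4588) against wild type (log2 ratio change -1.92, limma adjusted p = 0.656), where 0.711% of 2533 events were called. Of all events 0.115% were called for rbm-5(n5119) and 0.037% for rbm-5(n5132) against wild type, and 0.0376% between the alleles. Against uaf-1(n4588) the double mutants gave 0.0% with n5119 (125 of 2727 at an unadjusted p under 0.05) and 0.0374% with n5132. Against their rbm-5 single mutants they gave 0.549% and 0.645%, the interactions 0.0%, with 82 and 85 events at an unadjusted p under 0.05, and the averages 3.26% for uaf-1(n4588) and 0.105% for rbm-5. With the retained form at 0 in most libraries this ratio moves with the level of the gene.

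The other 10 introns were listed 13 times, in 10 of the 15 mutant libraries and in none of the 3 wild-type libraries. Assembly was done library by library, and an event that is not listed in a library has no value there, so these counts were not tested. Over all genes the wild-type libraries listed 1927–2233 retained introns and the mutant libraries 1834–2401. An intron of syp-1 was retained at 12.5 of 31.0 FPKM (40.4%) in uaf-1(n4588) replicate 3 and at 8.52 of 25.5 FPKM (33.5%) in uaf-1(n4588); rbm-5(n5119) replicate 2. An intron of syp-3 was retained at 24.8% and 15.1% in rbm-5(n5119) replicates 2 and 3, and another at 17.7% in uaf-1(n4588) replicate 2. The highest share was 57.4% in syp-4, at 3.82 of 6.66 FPKM in uaf-1(n4588); rbm-5(n5119) replicate 3, and the lowest 14.3%, in syp-4 of uaf-1(n4588); rbm-5(n5132) replicate 3. In htp-1, htp-3 and him-8 the shares were 20.1–29.6%, each in 1 library.

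Levels of several of the genes moved together across libraries. The correlation of log2(FPKM + 1) over 18 libraries was 0.959 (Pearson; Spearman 0.973) for htp-1 and him-3 and 0.961 after strain means were taken out. For syp-2 it was 0.912 with htp-1 and 0.895 with him-3. For syp-4, listed alone in 12 libraries, it was 0.925 with htp-1 and 0.926 with him-3. Not all pairs moved together as closely. For syp-3, with its listed zeros, the Pearson correlation ran from -0.217 with htp-2 to 0.054 with him-3. The lowest value of a pair without syp-3 was 0.405, for syp-2 and him-8 over 13 libraries. All values of a library share its scaling, assembly and depth, so these are descriptions. The genes with the profile most like the median of him-3, htp-1 and syp-2, among 2944 listed alone in all 18 libraries at a mean of at least 5 FPKM, were vha-18 (Pearson r = 0.966), C04B4.2 (0.942), F02E8.4 (0.934), H02I12.5 (0.930) and C31H1.8 (0.929).

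Further genes of meiosis were described from lists. Of 14 names in a list of cohesin, axis and synapsis parts, 9 were listed alone and 4 could be tested among strains. None of the 4 was called (lowest limma adjusted p = 0.839). The smallest p-values were those of rec-8, the meiotic kleisin of cohesin, and of coh-3, another meiotic kleisin. The rec-8 level was 6.34 ± 2.73 FPKM (SD, n = 3) in wild type and 13.5 ± 1.05 FPKM (SD, n = 3) in rbm-5(n5132). The coh-3 level was 8.97 ± 3.07 FPKM (SD, n = 3) and 16.7 ± 2.76 FPKM (SD, n = 3). Of 11 genes of pairing centres and chromosome movement 3 could be tested, none was called, and the smallest p-values were those of the kinase genes plk-2 and chk-2. The plk-2 level was 10.6 ± 4.34 FPKM (SD, n = 3) in wild type and 19.5 ± 3.38 FPKM (SD, n = 3) in rbm-5(n5132). For rec-8, coh-3 and plk-2 the means of the other strains lay between those of wild type and rbm-5(n5132). Of 28 names in a list for double-strand breaks and crossovers 8 could be tested, and none was called. There the smallest p-values were those of com-1, which acts in break resection, and of the helicase gene him-6. In rbm-5(n5132) against wild type the median log2 change was 0.60 for 6 cohesin and axis genes tested there, 0.36 for 4 of pairing and 0.41 for 13 of breaks and crossovers, beside -0.00 over all genes, and none was called. For rbm-5(n5119) these medians were 0.38 over 6 genes, 0.25 over 3 and 0.31 over 11, beside -0.22 over all genes. For uaf-1(n4588) they were 0.41 over 4, 0.28 over 5 and 0.18 over 12, beside -0.05. There too none was called.

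Markers of the stage of the eggs varied between the same libraries. Fewer cells of a type and less RNA per cell cannot be told apart in such libraries. Each of 16 markers of oocytes and early embryos was listed alone in some library, but only 6 of the 16 were in every library. A sum thus adds different genes in different libraries. The summed level per library was 463–1735 FPKM in wild type, 724–2587 FPKM in rbm-5(n5119), 1313–1989 FPKM in rbm-5(n5132) and 971–1351 FPKM in uaf-1(n4588). It was 847–1832 FPKM in uaf-1(n4588); rbm-5(n5119) and 996–2151 FPKM in uaf-1(n4588); rbm-5(n5132). In uaf-1(n4588) against wild type 11 of the 12 tested were higher, with a median log2 change of 1.25, and in rbm-5(n5132) all 12 were, with a median of 0.96. In rbm-5(n5119) 10 of the 12 were higher, with a median of 0.57. None was called. The oocyte yolk receptor gene rme-2 was at 2.65 ± 1.05 FPKM (SD, n = 3) in wild type, 15.2 ± 3.50 FPKM (SD, n = 3) in uaf-1(n4588) and 6.54 ± 1.21 FPKM (SD, n = 3) in rbm-5(n5132) (limma adjusted p among strains = 0.188). The eggshell chitin synthase gene chs-1 was at 2.41 ± 0.37, 10.1 ± 1.43 and 7.12 ± 2.69 FPKM (SD, n = 3) in the same strains (limma adjusted p among strains = 0.125).

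The 6 germ plasm markers were all listed and tested, none was called, and their median log2 change against wild type was 1.02 in uaf-1(n4588), 1.10 in rbm-5(n5132) and 0.52 in rbm-5(n5119). Of the 6, 3 were listed alone in every library, so their sums also add different genes. Their sum was 53.6–296 FPKM in wild type, 90.5–511 FPKM in rbm-5(n5119) and 178–418 FPKM in the other strains. The helicase gene glh-1 was at 11.2 ± 1.69 FPKM (SD, n = 3) in wild type and 36.9 ± 6.84 FPKM (SD, n = 3) in rbm-5(n5132) (limma adjusted p among strains = 0.424), and pgl-3, a P granule gene, at 5.56 ± 0.79 and 10.4 ± 1.60 FPKM (SD, n = 3). In uaf-1(n4588) the mean of glh-1 was 24.9 FPKM, and that of pgl-3 was the highest of the strains, 13.1 ± 3.28 FPKM (SD, n = 3). The 14 markers of differentiated embryonic tissue, of which 4 were listed alone in every library, gave different pictures by sum and by test. Their sum was 369–1877 FPKM in wild type, 424–2773 FPKM in rbm-5(n5119), 2206–3090 FPKM in rbm-5(n5132) and 2031–2506 FPKM in uaf-1(n4588). It was 365–495 FPKM in uaf-1(n4588); rbm-5(n5119) and 460–1215 FPKM in uaf-1(n4588); rbm-5(n5132). Thus both single mutants with high axis and synapsis genes had sums above every wild-type library. Most of each high sum was the collagen gene dpy-17, at 735–2472 FPKM in the 10 libraries that listed it alone, which are all 3 of rbm-5(n5132), all 3 of uaf-1(n4588) and 1 of wild type among others. Without dpy-17 the sum was 369–584 FPKM in wild type, 522–636 FPKM in rbm-5(n5132) and 328–536 FPKM in uaf-1(n4588). The median log2 change against wild type was -0.42 over the 6 of the 14 tested in uaf-1(n4588), -0.05 over 8 in rbm-5(n5132) and -0.29 over 8 in rbm-5(n5119). Of the tested markers, the intestinal esterase gene ges-1 had the smallest p among strains and was not called there (limma adjusted p = 0.449). With uaf-1(n4588) averaged over backgrounds it fell by 1.09 on the log2 scale (limma adjusted p = 0.0475). That was 1 call among 5 markers tested, just under the threshold, against 0.656% of all genes. Among strains the neuronal gene unc-119 had the next smallest p and was not called. Sperm markers summed to 0.28–2.07 FPKM, with 5 of 10 listed, and the 6 vitellogenin genes of the adult intestine to 0.19–4.25 FPKM, so both stood near 0 in every library.

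Across the 18 libraries the median deviation of him-3, htp-1 and syp-2 from their own means had a Pearson correlation of 0.809 (Spearman 0.794) with that of 6 of the 16 oocyte and early embryo markers. Without the 2 libraries farthest from the median of the markers it was 0.781, within strains 0.661, and in replicates 2 and 3 alone 0.780. The same correlation was 0.756 (Spearman 0.767) with 3 of the 6 germ plasm markers and 0.787 within strains. With 4 of the 14 markers of differentiated tissue it was -0.573 (Spearman -0.575), and -0.721 within strains. The summed level of all 14 was nevertheless high in some libraries with high him-3, htp-1 and syp-2, such as rbm-5(n5132) replicate 2 at 2206 FPKM. These correlations use the 6, 3 and 4 markers of each list that were listed alone in all 18 libraries, of 16, 6 and 14. For oocytes and early embryos these were pos-1, cbd-1, egg-1, rme-2, perm-2 and perm-4, the last with medians of only 0.34 and 0.18 FPKM. Their deviation could part from the sum of all 16. It was 0.90 in uaf-1(n4588) replicate 1, with a sum of 971 FPKM, and -0.32 in rbm-5(n5119) replicate 3, with 2587 FPKM. The part of embryo stage in the differences between strains was not tested.

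**Figure D4:**
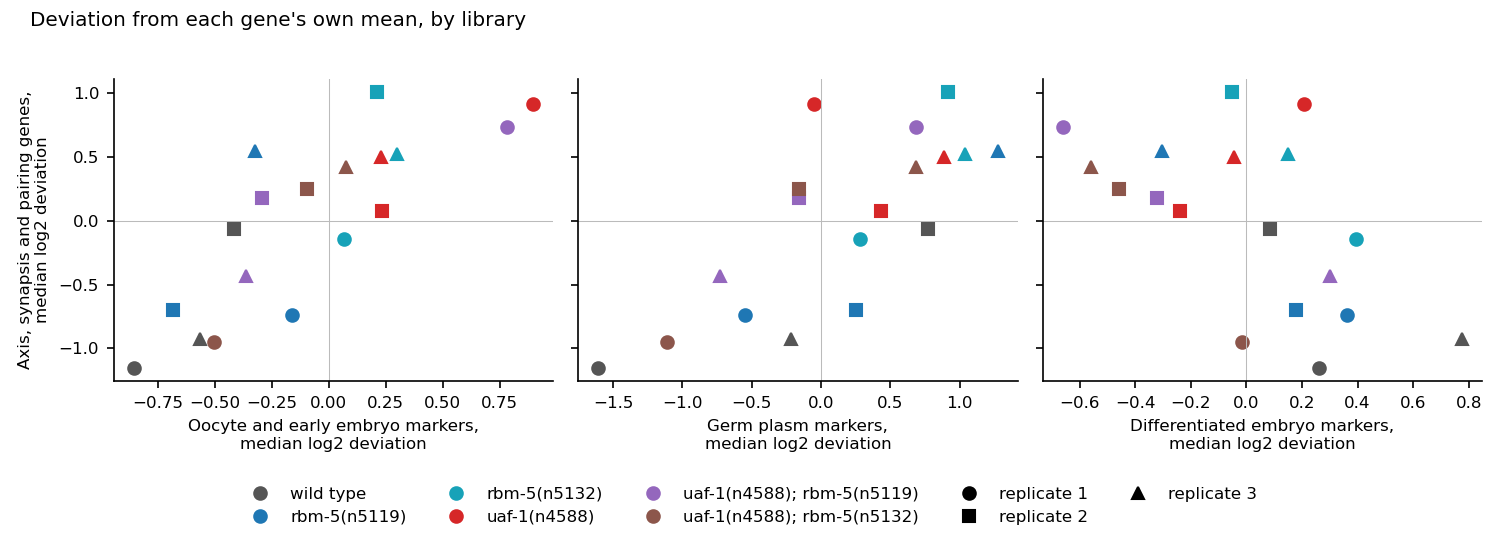
Median log2 deviation of him-3, htp-1 and syp-2 (vertical axis) against that of the 6, 3 and 4 genes of 3 marker lists that were listed alone in every library (horizontal axes), 1 point per library, with colours for strains and shapes for replicates. The median of him-3, htp-1 and syp-2 tends to be high where these 6 oocyte and early embryo markers (Pearson r = 0.809) and these 3 germ plasm markers (0.756) are high. It tends to be low where these 4 markers of differentiated tissue are high (-0.573), although the sum of all 14 was high in some libraries where this median was high.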

How the data were processed

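RNA from eggs of 6 strains, 3 libraries each, had been sequenced. The deposited values are FPKM, per the file headers, in 1 list of transcript starts, ends and splicing events per library. Per the submitters' processing notes, the authors used TopHat2 2.0.12, Bowtie2 and the WBcel235 assembly. Locus names differ between lists, so loci were assembled per library. The event caller and any scaling between libraries are not given in the sources used here, and without counts the depth is unknown.

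A gene's level was the summed start FPKM of loci naming it alone, as log2(FPKM + 1). For events, log2 of (retained FPKM + 1)/(spliced FPKM + 1) was used. The model (limma 3.58.1, R 4.3.3) held a mean for each strain over all 18 libraries, with an intensity trend for levels only. A contrast took genes and events with a mean of at least 1 FPKM that 2 or more libraries of every strain in it listed. Tests were two-sided, with Benjamini-Hochberg adjustment over all genes or events of a contrast. The fit was tested on simulated data. Missing values were left out and listed zeros kept. Samples were grouped by title.

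The genes, lists and contrasts were chosen with earlier results of these data known. All 10 genes are named, with the gene of smallest p in each comparison. Of each further list the 2 genes with the smallest p among strains are named, and of similar profiles the top 5. Other genes with an unadjusted p under 0.05 were named after their values were seen. Alternatives changed the entry type, pseudocount, filter, scaling, zeros, trend and libraries.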

Additional observations from a re-analysis of the deposited data

How the results depend on the processing

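None of the genes was called under 29 alternatives of the fit for the 8 pairs of strains, or under 28 for the test among strains, the interactions and the averages, where fitting only the strains compared was not run. Of these alternatives 18 leave out 1 library. The lowest limma adjusted p of a gene under any of them was 0.257, for syp-2 among strains. Most refits leave a difference as it was, since they change neither its libraries nor its scale: of 957 refitted differences that moved, 55 changed sign. Without rbm-5(n5119) replicate 3, htp-1, htp-2, syp-2 and syp-3 changed sign in rbm-5(n5119) against wild type. Leaving out 1 library moved the median over the genes to between -0.17 and 0.40 for uaf-1(n4588); rbm-5(n5119) against rbm-5(n5119) (0.17 as reported), to between -0.56 and 0.00 for it against uaf-1(n4588) (-0.30), and to between 0.00 and 0.39 for uaf-1(n4588) averaged (0.18). The him-3 intron was not called under any alternative either. The number of calls over all genes did move. Among strains it was 5–41 under the alternatives (21 as reported), for uaf-1(n4588) against wild type 3–22 (15), for rbm-5(n5119) against wild type 0–8 (2) and for rbm-5(n5132) against wild type 0–6 (1). For the rbm-5 alleles against each other it was 0–9 (1). For the double mutants against uaf-1(n4588) it was 0–5 (2) with n5119 and 2–27 (7) with n5132, and against their rbm-5 single mutants 0–16 (10) and 1–31 (2). For the interactions it was 0–4 (0) with n5119 and 1–20 (6) with n5132, and for the averages 24–59 (47) for uaf-1(n4588) and 0–6 (2) for rbm-5. The cause was not tested.

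Replicate numbers are shared between strains, but not every pair of same-numbered libraries deviated together, so the numbers were not taken as pairs: 20 of 45 such pairs had a correlation over 0.1 (median 0.09, range -0.39 to 0.42), against 23 of 90 pairs with different numbers (median -0.04). Of the 18 libraries, 13 correlated best with their own number, a hint from the data and not the design. With the replicate number as a block in the fit none of the genes was called, 8 genes were called among strains, and 6 for uaf-1(n4588) against wild type.

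FPKM without counts gives no counting error, and with 3 libraries a strain many gaps limit what can be seen: htp-3 and syp-4 could not be tested in every comparison and zim-2 in none.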
